A study of Sus scrofa with 20 samples.

Results

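Solute carriers are membrane proteins that move sugars, amino acids, fatty acids, nucleosides, vitamins and ions across the plasma membrane and the membranes of organelles, most of them by facilitated diffusion or by coupling one solute to the gradient of another. Genes of the set were taken from the probe annotation of the array by symbol, as every gene with a single symbol of the form SLC, a number and the letter A, leaving out the sodium-calcium exchanger gene SLC8A1. The rule gave 110 genes in 36 families, of 6765 genes that carried 1 symbol on the array. Each was represented by its probe set (a group of short probes against one transcript) with the highest mean over all arrays, and 36 of the 110 had more than 1 probe set, with 162 probe sets in all. In 3 of the 110, SLC2A4RG, SLC9A3R1 and SLC9A3R2, the symbol names a regulator or scaffold protein of a carrier and not a carrier. SLC3A1 and SLC3A2, counted here with the amino acid carriers, are heavy chains that pair with carrier subunits. SLC6A4 and SLC6A8, which carry serotonin and creatine, are also counted in that class, by their family number.

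Transcripts were measured in the heart of 20 female pigs on an Affymetrix porcine array of 1 colour, each animal on an array of its own, with 5 sham-operated controls and 5 animals in each of 3 ischemia protocols. SWOP animals had 1 session of 2 coronary occlusions of 10 min with 10 min of reperfusion after each, and were sampled after 24 h of reperfusion. RCO animals received that stimulus 6 times at 12 h intervals, and RCS animals had 90 min of low-flow ischemia from a coronary stenosis 6 times at 12 h intervals. The breed and age of the pigs, the part of the heart sampled and the time from the last RCO or RCS episode to sampling are not stated in the labels. Per the series title, the comparison asked whether repeated ischemia over days preconditions the heart by other mechanisms than the second window after a brief stimulus.

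All levels below are the deposited values, taken as log2 signal, and are listed in the order of replicates 1 to 5. Differences are log2 differences ± SE from limma, fitted on all 20 arrays, and a gene passed where p was below 0.05 after Benjamini-Hochberg adjustment over 23999 probe sets. The number of arrays limited the precision, with a median SE of 0.111 (log2), and p-values measure the spread between animals. Signals of different probe sets are not comparable, so no gene's level is set against another's. Array medians lay between 6.75 and 6.82. The mean signal of the spike-in control spots was 10.21 to 10.43 on RCS arrays and 10.58 to 10.66 on control arrays. Every RCS array lay below every array of the other groups in this value. The interquartile range was 3.27 to 3.44 in RCS, 3.04 to 3.16 in control, 3.05 to 3.32 in RCO and 3.26 to 3.3 in SWOP. The part of these array differences in the RCS values was not tested. Of the 9 cardiomyocyte markers measured of 12 listed, none was below the 30th percentile of signal (5.48) in any group, and their mean per array was 13.47 to 13.75 in control and 13.36 to 13.68 in RCS. In RCS 7 of the 9 fell and NPPA rose, where 25.7% of all genes fell and 28.8% rose. The summed signal of the 9 on the linear scale did not overlap between these 2 groups, at 151257 to 157243 in control and 117897 to 141092 in RCS. In whole tissue, fewer cells of a type and less RNA per cell cannot be told apart.

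Heart muscle takes up fatty acids, glucose and lactate, and the carriers of the mitochondrial inner membrane (the SLC25 family) exchange adenine nucleotides, phosphate, acylcarnitines and the intermediates of the malate-aspartate shuttle with the cytosol. Glucose enters cardiac muscle cells mainly through the basal transporter GLUT1 (SLC2A1) and the insulin-responsive GLUT4 (SLC2A4), and lactate leaves glycolytic cells through MCT4 (SLC16A3). Other carriers mark other cells of the heart, among them NRAMP1 (SLC11A1), a divalent metal transporter of the phagosomes of macrophages and neutrophils.

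Counts of carrier genes that differed from control were small after SWOP, larger after RCO and largest after RCS. In SWOP 5 of 110 genes rose and 4 fell, against 8.16% of all genes that passed in either direction (4.66% higher and 3.5% lower). In RCO 11 rose and 10 fell, where 15.6% of all genes passed (11.3% higher and 4.26% lower). In RCS 30 rose and 35 fell, where 54.5% of all genes passed (28.8% higher and 25.7% lower). The shares of carrier genes in SWOP and RCS were near those of the array as a whole. The same shares over all genes apply to the counts of partner genes and markers below, also where they are not repeated. With quantile-normalized or median-centred values the SWOP calls were 4 and 5, all higher, and after median centring the RCO calls were 11 higher and 6 lower. The 3 comparisons with control share the 5 control arrays, so a gene that passed in several of them did not do so independently. The median difference of the 110 genes was −0.01 in SWOP, −0.04 in RCO and −0.05 in RCS, beside 0.04, 0.01 and 0.00 over all genes. Of the 110 genes, 36 passed in none of the 6 comparisons between groups, and 45 passed in none of the 3 with control.

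These counts depended on single arrays and on the fit to unequal degrees. When each array was left out in turn, the RCS count was 57 to 66 genes, the SWOP count 3 to 12 and the RCO count 3 to 27. The SWOP count fell to 3 without SWOP replicate 2, 3 or 4, to 5 without SWOP replicate 5, and to 4 without control replicate 2, 4 or 5. The RCO count fell to 7 without RCO replicate 2, to 3 without RCO replicate 3, and to 13, 9 and 10 without control replicates 1, 2 and 5. With both RCO replicates 2 and 3 left out 2 genes passed in RCO (SLC5A6 and SLC5A4), and in a fit of only the RCO and control arrays none did. A fit of only the SWOP and control arrays gave 22 genes, so the order of SWOP and RCO reversed with the fit. In these 2 fits 4.04% of all genes passed in RCO and 20.4% in SWOP. The genes that passed under every alternative of the fit other than a limit on fold were 3 of 9 in SWOP (SLC5A6, SLC25A39 and SLC44A2), 0 of 21 in RCO and 50 of 65 in RCS. Calls in RCO of 3 genes (SLC5A6, SLC31A1 and SLC41A1) did not depend on any 1 array. The SD within RCO was the largest of the 4 groups for 60 of 110 carrier genes (54.5%, against 62.8% of all genes), with a median SD of 0.242 in RCO, 0.167 in control, 0.126 in SWOP and 0.174 in RCS.

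**Figure D1:**
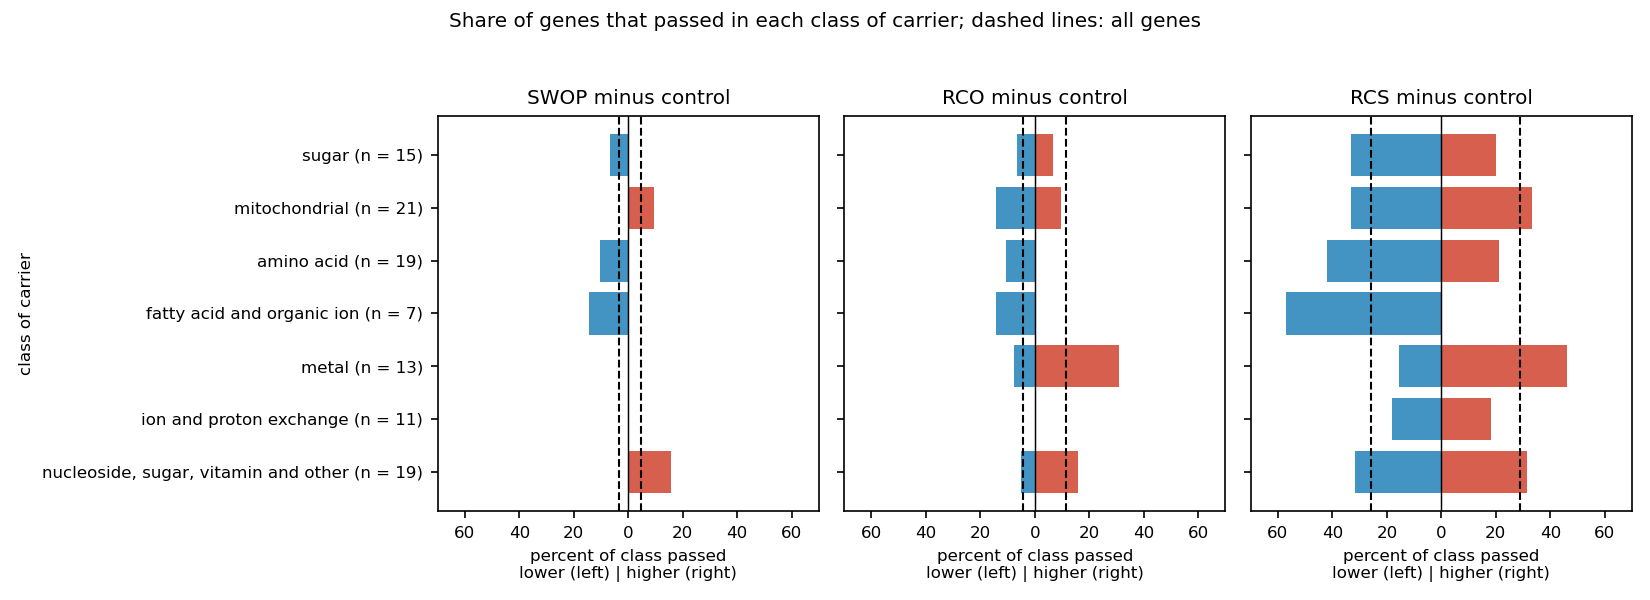
Bars show the percent of genes that passed lower (left) and higher (right) in each class of carrier, for each protocol against control, and dashed lines mark the percent over all genes. The class of 2 monocarboxylate carriers and the 3 genes that are not carriers are left out. In RCS 6 of 13 metal carriers passed higher and 8 of 19 amino acid carriers lower, and in SWOP no class had more than 3 genes that passed.

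Among the sugar carriers, the gene of the insulin-responsive glucose transporter GLUT4 fell after both repetitive protocols, that of the basal transporter GLUT1 rose in RCS, and that of the fructose transporter GLUT5 rose 9.09-fold in RCS. Of 15 sugar carrier genes 3 rose and 5 fell in RCS (20% and 33.3%, near the shares over all genes), 1 rose and 1 fell in RCO, and none rose and 1 fell in SWOP.

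SLC2A4 (GLUT4) had a log2 signal of 9.20, 8.56, 8.89, 9.46 and 9.08 on the control arrays, 8.63, 8.83, 9.26, 9.16 and 9.10 after SWOP, 8.44, 8.12, 8.08, 8.27 and 8.94 after RCO and 8.24, 8.09, 7.73, 7.88 and 8.65 after RCS. SWOP overlapped control over its whole range, while 4 of 5 RCO and 4 of 5 RCS arrays lay below the lowest control, the exceptions being RCO replicate 5 and RCS replicate 5. The difference from control was −0.04 ± 0.19 in SWOP (adjusted p = 0.913), −0.67 ± 0.19 in RCO (1.59-fold lower, adjusted p = 0.0306) and −0.92 ± 0.19 in RCS (1.89-fold lower, adjusted p = 0.000763). Without RCO replicates 2 and 3 the RCO difference was −0.49 ± 0.21 (adjusted p = 0.21), and it also missed the threshold without RCO replicate 2, 3 or 4 or control replicate 1, 4 or 5, alone (adjusted p from 0.055 to 0.091). The other 2 probe sets of SLC2A4 were also lower in RCS, at −0.45 (adjusted p = 0.0046) and −0.35 (adjusted p = 0.0091). In RCO neither of them passed, at −0.31 (adjusted p = 0.10) and −0.25 (adjusted p = 0.13). SLC2A4RG, a DNA-binding regulator named for the GLUT4 promoter, differed by −0.36 ± 0.11 in RCO (adjusted p = 0.0385) and −0.88 ± 0.11 in RCS (adjusted p = 5.98e-06), with all 5 arrays of both groups below every control. Its RCO call was lost without control replicate 2, 3 or 5 or RCO replicate 2, 3 or 5 (adjusted p from 0.051 to 0.11).

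SLC2A1 (GLUT1), the basal glucose transporter, had a log2 signal of 8.63, 7.53, 8.26, 8.67 and 8.29 on the control arrays, 8.31, 9.14, 9.01, 9.02 and 9.06 after SWOP, 8.36, 8.45, 8.99, 8.88 and 8.88 after RCO and 8.86, 8.73, 9.10, 9.35 and 8.82 after RCS. All 5 RCS arrays exceeded the highest control, as did 4 of 5 SWOP and 3 of 5 RCO arrays, while SWOP replicate 1 lay inside the control range and apart from the other 4 SWOP arrays. The difference passed in RCS (0.70 ± 0.20, 1.62-fold, adjusted p = 0.00783) and not in SWOP (0.63 ± 0.20, adjusted p = 0.0573) or RCO (0.44 ± 0.20, adjusted p = 0.163). RCS minus SWOP was 0.06 ± 0.20 (adjusted p = 0.837). SLC2A3 (GLUT3, a glucose transporter of high affinity) did not pass in any comparison, at 0.15 ± 0.13, 0.21 ± 0.13 and 0.22 ± 0.13 against control in SWOP, RCO and RCS. SLC2A12 (GLUT12) also fell in RCS, with 6.17, 5.43, 5.67, 5.57 and 5.59 against 6.72, 6.37, 6.38, 6.29 and 6.25 in control. All 5 RCS arrays lay below every control (difference −0.72 ± 0.15, adjusted p = 0.000818), and RCO was at −0.37 ± 0.15 (adjusted p = 0.12).

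SLC2A5 (GLUT5), which carries fructose, had a log2 signal of 5.40, 5.35, 5.05, 5.51 and 5.49 in control and 4.81, 4.95, 5.17, 4.94 and 4.96 in SWOP, near or below the 30th percentile of signal. In RCO it was 4.95, 8.53, 7.41, 5.85 and 5.78, and in RCS 8.43, 8.60, 8.82, 8.99 and 7.88. The RCS arrays all lay above every control, and RCO replicates 2 and 3 stood apart from the other 3 RCO arrays, which lay between 4.95 and 5.85. The gene was 9.09-fold higher in RCS than in control (difference 3.18 ± 0.43, adjusted p = 1.62e-05) and 4.11-fold higher than in RCO (difference 2.04 ± 0.43, adjusted p = 0.00506). In RCO the difference from control was 1.14 ± 0.43 (adjusted p = 0.0922), and 0.17 ± 0.21 without replicates 2 and 3 (adjusted p = 0.726). SLC50A1, a sugar carrier of the SWEET family, was 6.96 ± 0.09 in control and 7.94 ± 0.19 in RCS (SD, n = 5), 1.96-fold higher (adjusted p = 7.52e-06), and also rose in RCO (0.45 ± 0.12, adjusted p = 0.0243). The lowest RCO array (7.12) lay above the highest control (7.05), and without RCO replicate 3, RCO replicate 2 or control replicate 2 the call was lost (adjusted p from 0.063 to 0.074). SLC5A10, a sodium-coupled sugar carrier, fell in SWOP (−0.43 ± 0.12, adjusted p = 0.0327) and in RCS (−0.65 ± 0.12, adjusted p = 0.00024), and in RCO was at −0.12 ± 0.12 (adjusted p = 0.537). Its SWOP call was lost without any of control replicates 2, 4 and 5 or SWOP replicates 2 to 5 (adjusted p from 0.059 to 0.091).

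Of 6 genes of glucose uptake and its control that are not carriers, TXNIP, which promotes removal of glucose transporters from the plasma membrane, fell in RCO (−0.61 ± 0.14, adjusted p = 0.00843) and RCS (−0.54 ± 0.14, adjusted p = 0.00332). RAB10, a small GTPase of GLUT4 vesicle traffic, rose in SWOP (0.24 ± 0.07, adjusted p = 0.0348) and RCS (0.31 ± 0.07, adjusted p = 0.00108). The other 4 (HK1, PDK4, TBC1D4 and GYS1) did not pass against control in any protocol.

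**Figure D2:**
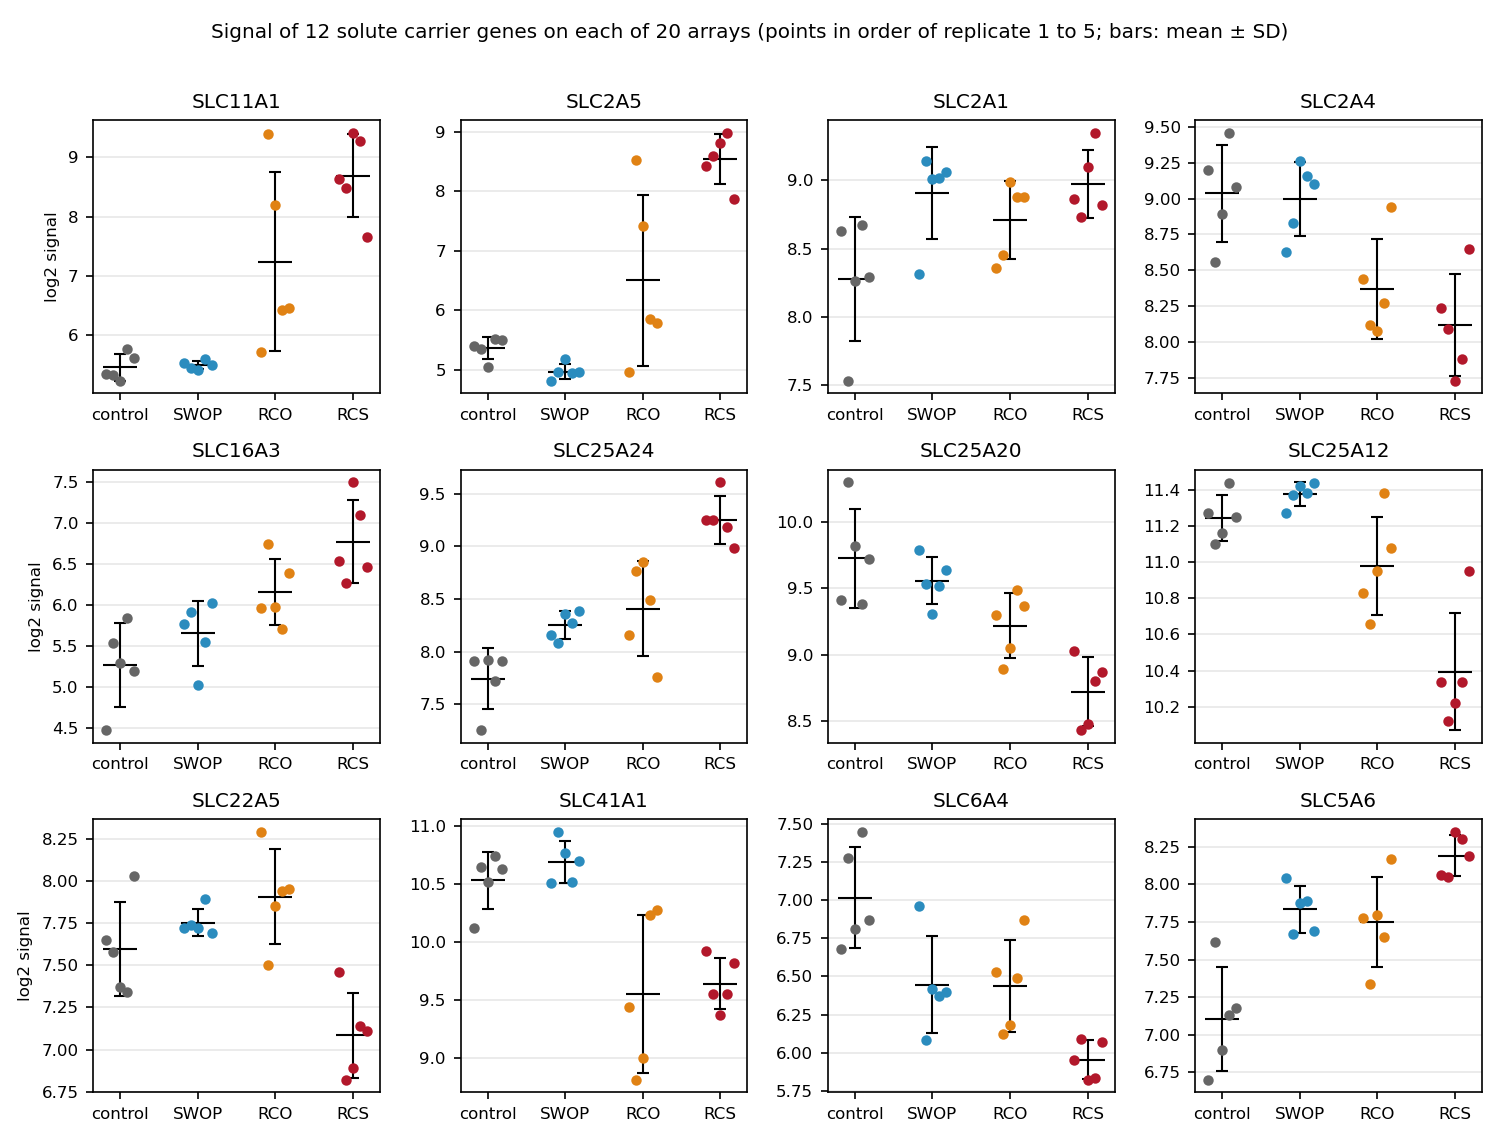
Each point is the log2 signal of 1 array, in the order of replicates 1 to 5 within each group, and bars give the mean and SD of 5 arrays. SLC11A1 and SLC2A5 were high in all 5 RCS arrays and in RCO replicates 2 and 3, and SLC2A4, SLC25A20 and SLC25A12 were low in RCS.

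The lactate exporter gene rose in both repetitive protocols, beside LDHA, while the genes that carry pyruvate into mitochondria and oxidize it fell in RCS. SLC16A3 (MCT4), a proton-coupled lactate carrier of glycolytic tissue, had a log2 signal of 4.47, 5.54, 5.29, 5.84 and 5.19 on the control arrays, 5.77, 5.91, 5.02, 5.55 and 6.03 after SWOP, 5.97, 6.74, 5.98, 5.71 and 6.39 after RCO and 6.54, 6.27, 7.50, 7.10 and 6.47 after RCS. All 5 RCS arrays and 4 of 5 RCO arrays lay above the highest control, and SWOP overlapped control. It was 2.85-fold higher in RCS (difference 1.51 ± 0.26, adjusted p = 0.000174), 1.86-fold higher in RCO (difference 0.89 ± 0.26, adjusted p = 0.0362) and at 0.39 ± 0.26 in SWOP (adjusted p = 0.358). Control replicates 1, 3 and 5 (4.47, 5.29 and 5.19) lay below 5.48, the percentile of signal given above. The folds of SLC16A3 therefore rest in part on dim controls. The RCO call was lost without control replicate 1, the lowest control (0.69, adjusted p = 0.095), without RCO replicate 2 (0.75, adjusted p = 0.091), and without control replicate 3 or 5 or RCO replicate 3 (adjusted p from 0.056 to 0.065). SLC16A13, the other measured member of the family, did not pass (RCS difference −0.06 ± 0.11).

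Of 8 partner genes of monocarboxylate transport, 1 rose and 5 fell in RCS, 1 rose and 1 fell in RCO, and 1 rose in SWOP. The shares over all genes in RCS were 28.8% higher and 25.7% lower. LDHA, the lactate dehydrogenase subunit of glycolytic tissue, rose in SWOP (0.99 ± 0.16), RCO (1.52 ± 0.16) and RCS (2.17 ± 0.16, adjusted p = 1.87e-07). In RCS LDHB, the heart subunit of the enzyme, differed by −0.35 ± 0.08, the mitochondrial pyruvate carrier subunits MPC1 and MPC2 by −0.37 ± 0.14 and −0.40 ± 0.15, and the pyruvate dehydrogenase subunits PDHA1 and PDHB by −0.73 ± 0.14 and −0.53 ± 0.12, all of which passed. BSG, the chaperone of the lactate carriers, fell in RCO (−0.44 ± 0.14, adjusted p = 0.0431) and was at −0.31 ± 0.14 in RCS (adjusted p = 0.0627).

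The mitochondrial carrier family split in RCS, with 7 of 21 genes higher, 7 lower and 7 that did not pass. These shares, 33.3% in each direction, lay near the 28.8% and 25.7% over all genes. In RCO 2 rose and 3 fell, and in SWOP 2 rose. The carriers of fatty acylcarnitine, phosphate and the malate-aspartate shuttle were among those that fell, and the ATP-magnesium/phosphate carrier SLC25A24, the translocase isoforms SLC25A5 and SLC25A6, SLC25A17 and SLC25A21 were among those that rose.

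The 3 measured ADP/ATP translocases, which exchange mitochondrial ATP for cytosolic ADP, moved apart in RCS. SLC25A4, the isoform of heart and skeletal muscle, had a log2 signal of 13.85, 13.86, 13.86, 13.89 and 13.89 on the control arrays, 13.90, 14.06, 13.92, 13.93 and 14.05 after SWOP, 13.70, 13.48, 13.50, 13.84 and 13.90 after RCO and 13.69, 13.40, 13.17, 13.35 and 13.78 after RCS. The controls lay within a narrow range, all 5 RCS arrays lay below them, and all 5 SWOP arrays lay above the highest control without passing (0.10 ± 0.10, adjusted p = 0.554). The RCS difference was −0.39 ± 0.10 (1.31-fold lower, adjusted p = 0.00461), and RCO was at −0.19 ± 0.10 (adjusted p = 0.256).

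SLC25A5, the isoform of dividing and many non-muscle cells, had a log2 signal of 9.18, 9.18, 9.27, 9.08 and 9.51 on the control arrays, 9.49, 9.13, 9.35, 9.50 and 9.29 after SWOP, 9.68, 10.11, 10.24, 9.71 and 9.25 after RCO and 10.52, 10.54, 10.53, 10.65 and 10.37 after RCS. No RCS array overlapped any array of another group, and in RCO replicates 2 and 3 were the highest. It was 2.43-fold higher in RCS than in control (difference 1.28 ± 0.14, adjusted p = 2.19e-06) and 1.47-fold higher in RCO (difference 0.55 ± 0.14, adjusted p = 0.0156), the latter 0.30 ± 0.12 without RCO replicates 2 and 3 (adjusted p = 0.153) and 0.44 without RCO replicate 3 alone (adjusted p = 0.052). SLC25A6, the ubiquitous isoform, was 12.82 ± 0.18 in control and 13.09 ± 0.15 in RCS (SD, n = 5 each), with 3 of 5 RCS arrays above the highest control. Its difference of 0.28 ± 0.10 (adjusted p = 0.0272) missed the threshold without control replicate 1 (0.22, adjusted p = 0.083), control replicate 3 or RCS replicate 1, 3 or 4 (adjusted p from 0.060 to 0.065), and after quantile normalization (0.20, adjusted p = 0.13). The coding sequences of these isoforms are much alike, and cross-hybridization between their probe sets was not tested.

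**Figure D3:**
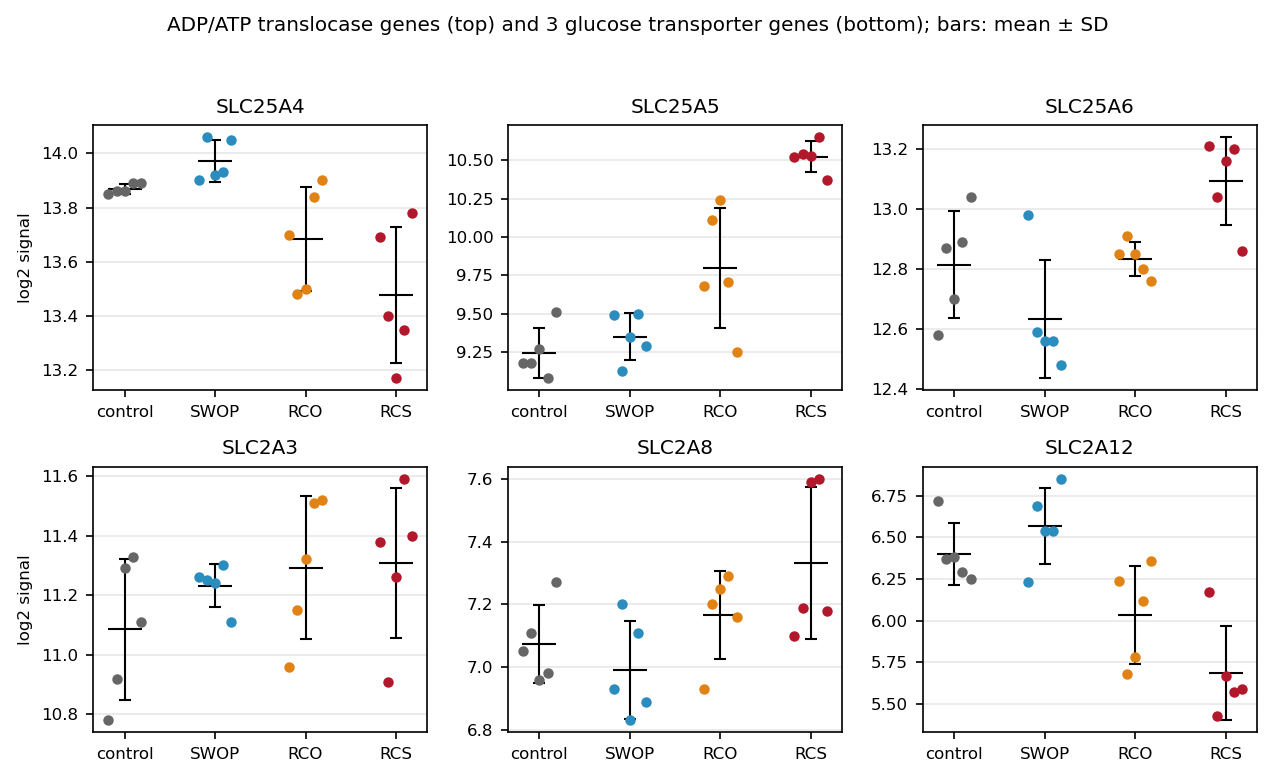
Points are log2 signals of single arrays for the ADP/ATP translocases SLC25A4, SLC25A5 and SLC25A6 (top row) and the glucose carriers SLC2A3, SLC2A8 and SLC2A12 (bottom row), with mean and SD of 5 arrays. RCS arrays lay below all controls for SLC25A4 and SLC2A12 and above all of them for SLC25A5, and for SLC2A3 the groups overlapped.

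SLC25A20, which exchanges acylcarnitines for carnitine, had a log2 signal of 9.41, 10.30, 9.82, 9.38 and 9.72 on the control arrays, 9.79, 9.53, 9.31, 9.52 and 9.64 after SWOP, 9.30, 8.89, 9.05, 9.49 and 9.37 after RCO and 9.03, 8.43, 8.48, 8.80 and 8.87 after RCS. All 5 RCS arrays and 4 of 5 RCO arrays lay below the lowest control. The difference was −1.0 ± 0.16 in RCS (2.01-fold lower, adjusted p = 7.81e-05) and −0.51 ± 0.16 in RCO (adjusted p = 0.0489), which missed the threshold without control replicate 2, the highest control (−0.36, adjusted p = 0.14), and without control replicate 3 or 5 or RCO replicate 1, 2 or 3 (adjusted p from 0.052 to 0.12).

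SLC25A12, the calcium-regulated aspartate/glutamate carrier of heart and muscle, had a log2 signal of 11.27, 11.10, 11.16, 11.44 and 11.25 in control and 10.34, 10.12, 10.22, 10.34 and 10.95 in RCS. All RCS arrays lay below every control, with RCS replicate 5 apart from the other 4. The difference was −0.85 ± 0.13 in RCS (1.8-fold lower, adjusted p = 7.13e-05), −0.26 ± 0.13 in RCO (adjusted p = 0.214) and 0.13 ± 0.13 in SWOP (adjusted p = 0.557). SLC25A11, which exchanges oxoglutarate for malate and completes that shuttle, fell in RCS (−0.29 ± 0.12, adjusted p = 0.0441) and lost its call without any 1 of 9 arrays (adjusted p from 0.052 to 0.12). All 5 SWOP arrays of SLC25A11 (10.09 to 10.27) lay above every control (9.73 to 9.89), at 0.36 ± 0.12 (adjusted p = 0.0638), and RCO and RCS were lower than SWOP (−0.42 ± 0.12 and −0.65 ± 0.12, adjusted p = 0.0269 and 0.000374). The call between RCO and SWOP was lost without RCO replicate 2 or 3 or SWOP replicate 2, 3, 4 or 5 (adjusted p from 0.050 to 0.073).

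SLC25A3, the phosphate carrier that supplies the ATP synthase, had narrow groups, with 14.33, 14.31, 14.31, 14.25 and 14.29 in control and 13.97, 13.89, 13.88, 14.00 and 14.14 in RCS. All RCS arrays lay below every control, and 4 of 5 RCO arrays (13.93, 13.92, 14.02, 14.21 and 14.26) did. The RCS difference was −0.32 ± 0.07 (1.25-fold lower, adjusted p = 0.00159), and its other probe set was also lower (−0.35, adjusted p = 0.018). In RCO the difference of −0.23 ± 0.07 (adjusted p = 0.0492) missed the threshold without any one of 8 arrays, and its other probe set was at 0.07. SLC25A30, a mitochondrial carrier first described in kidney, was 10.52, 10.84, 10.86, 10.90 and 11.06 on the control arrays, 10.26, 9.31, 9.40, 10.71 and 10.55 after RCO and 10.36, 9.13, 9.42, 9.91 and 9.89 after RCS. The lowest arrays were RCO replicates 2 and 3 and RCS replicates 2 and 3, and RCO replicates 4 and 5 lay inside the control range. The differences were −0.79 ± 0.25 in RCO (adjusted p = 0.0447) and −1.09 ± 0.25 in RCS (adjusted p = 0.00142), the former −0.33 ± 0.20 without RCO replicates 2 and 3 (adjusted p = 0.395). The RCO call was also lost without control replicate 2, 3, 4 or 5 or RCO replicate 2 or 3, each alone (adjusted p from 0.071 to 0.13).

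Among the mitochondrial carrier genes that rose, SLC25A24, a calcium-dependent carrier of ATP-magnesium and phosphate, had a log2 signal of 7.91, 7.25, 7.92, 7.72 and 7.91 on the control arrays, 8.16, 8.08, 8.36, 8.27 and 8.39 after SWOP, 8.16, 8.77, 8.85, 8.49 and 7.76 after RCO and 9.25, 9.25, 9.61, 9.18 and 8.98 after RCS. All SWOP and RCS arrays exceeded every control, and the RCS arrays exceeded every array of the other groups. The differences were 0.51 ± 0.18 in SWOP (adjusted p = 0.0754), 0.66 ± 0.18 in RCO (adjusted p = 0.0202) and 1.51 ± 0.18 in RCS (2.85-fold, adjusted p = 3.46e-06). Without RCO replicates 2 and 3 the RCO value was 0.39 ± 0.17 (adjusted p = 0.197), and without either of them or control replicate 2 the adjusted p was 0.053 to 0.069. SLC25A17, a carrier of the peroxisomal membrane, and SLC25A21, which carries oxoadipate, were 2.58-fold and 2.43-fold higher in RCS (differences 1.37 ± 0.27 and 1.28 ± 0.26, adjusted p = 0.000426 and 0.000723), with all 5 RCS arrays above every control for both.

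The genes of this family that rose in SWOP were SLC25A39, which imports glutathione into mitochondria, and SLC25A1, the citrate carrier. SLC25A39 was 8.57, 8.62, 8.74, 8.22 and 8.47 in control and 8.75, 8.99, 8.88, 8.99 and 9.28 in SWOP. Every SWOP array lay above every control, SWOP replicate 1 only just so, and all 5 RCS arrays (8.97 to 9.15) did too. The difference was 0.45 ± 0.10 in SWOP (adjusted p = 0.0132), 0.28 ± 0.10 in RCO (adjusted p = 0.0658) and 0.54 ± 0.10 in RCS (adjusted p = 0.000218). SLC25A1 differed by 0.36 ± 0.10 in SWOP (adjusted p = 0.0306) and 0.27 ± 0.10 in RCS (adjusted p = 0.0266), but the groups overlapped, since control replicate 4 (8.61) lay above all 5 RCS arrays. The call was lost after quantile normalization in both (0.28, adjusted p = 0.091, and 0.15, adjusted p = 0.21) and without any one of 6 arrays in SWOP and 7 in RCS (adjusted p from 0.057 to 0.082 and from 0.051 to 0.085).

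**Figure D4:**
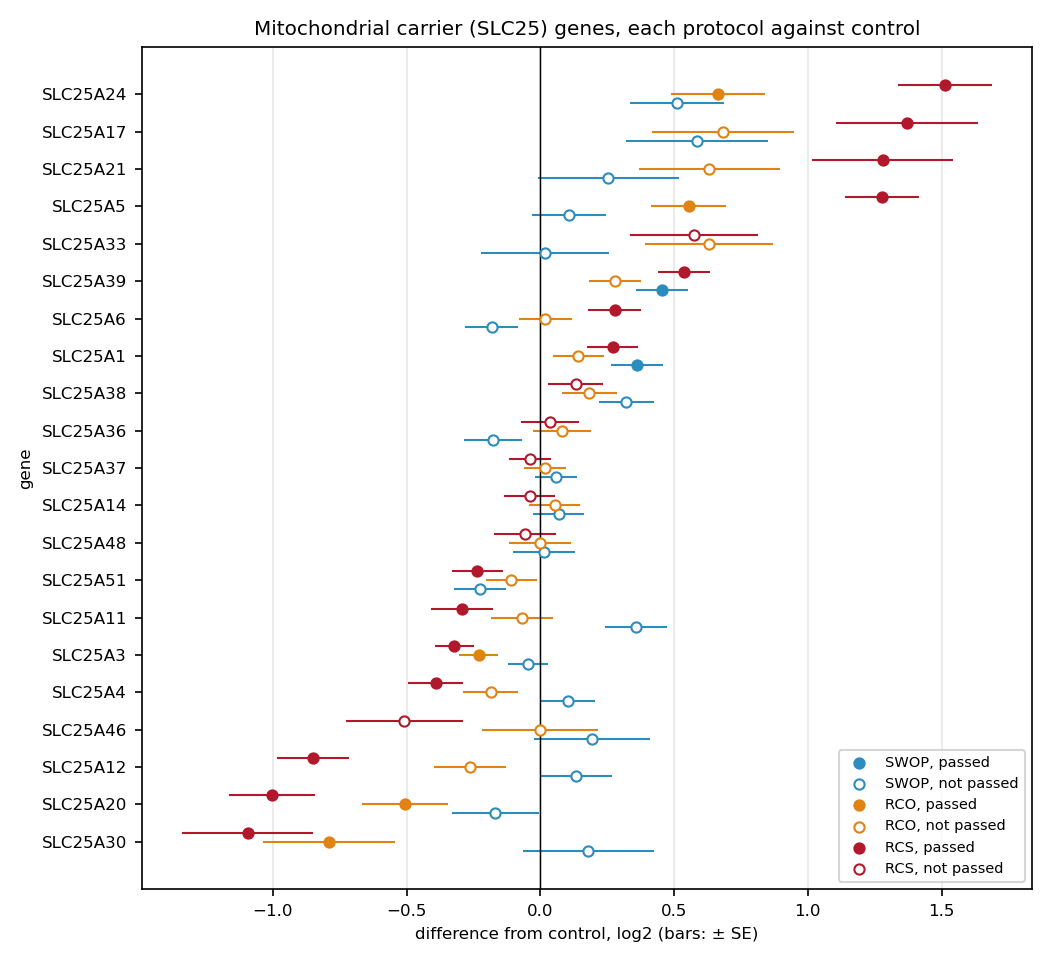
Points are differences from control in log2 for the 21 genes of the SLC25 family, with SE, filled where the adjusted p was below 0.05. In RCS the values ran from −1.09 (SLC25A30) to 1.51 (SLC25A24), and in SWOP 2 genes passed, SLC25A1 and SLC25A39.

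Of 17 measured partner genes of mitochondrial transport, 9 fell and 3 rose in RCS, 2 fell in RCO and 2 rose in SWOP. Among all genes 25.7% fell and 28.8% rose in RCS. The shuttle enzymes GOT1, GOT2, MDH1 and MDH2, which make and use the solutes of SLC25A11 and SLC25A12, differed in RCS by −0.73 ± 0.18, −0.67 ± 0.14, −0.38 ± 0.10 and −0.69 ± 0.11, and all 4 passed. The outer membrane channels VDAC2 and VDAC3 also fell (−0.45 ± 0.09 and −0.39 ± 0.13), and VDAC1 was at −0.19 ± 0.08 (adjusted p = 0.0562). The uncoupling protein homologues moved apart, UCP2 higher (0.71 ± 0.16) and UCP3 lower (−0.29 ± 0.09). In SWOP TIMM8A and TIMM22, parts of the machinery that inserts carriers into the inner membrane, rose (0.65 ± 0.17 and 0.57 ± 0.14, adjusted p = 0.0296 and 0.0243). The cardiomyocyte markers moved alongside these values, with 7 of 9 lower in RCS (ACTC1 −0.60 ± 0.08, RYR2 −1.22 ± 0.19), MYH7 at −0.04 ± 0.06 and NPPA, a gene of the stressed myocyte, higher (3.42 ± 0.52). Their part in the fall of the mitochondrial carriers was not tested.

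The SLC22 and SLC27 families, which hold carriers of fatty acids and carnitine beside carriers of other organic ions, had 7 measured genes, of which 4 fell and none rose in RCS (57.1%, against 25.7% of all genes lower), and 1 fell in SWOP and in RCO. The 4 were SLC22A5, SLC27A1 and SLC27A6, which serve carnitine or fatty acids, and SLC22A6, an organic anion transporter (−0.36 ± 0.11, adjusted p = 0.00881). The organic ion transporters SLC22A2, SLC22A3 and SLC22A8 passed in no comparison. SLC22A5 (OCTN2), which brings carnitine into the cell, had a log2 signal of 7.65, 7.58, 7.37, 7.34 and 8.03 on the control arrays, 7.72, 7.74, 7.72, 7.89 and 7.69 after SWOP, 8.29, 7.50, 7.85, 7.94 and 7.95 after RCO and 7.46, 6.82, 6.89, 7.14 and 7.11 after RCS. RCS was the lowest group, with all 5 arrays below every RCO and SWOP array and 4 of 5 below every control, while RCO replicate 1 lay above the highest control and the other 4 RCO arrays inside the control range. The RCS difference was −0.51 ± 0.14 from control (adjusted p = 0.0067) and −0.82 ± 0.14 from RCO (1.77-fold lower, adjusted p = 0.00186), and that between RCO and control was 0.31 ± 0.14 (adjusted p = 0.163). The direct comparison shows that the 2 repetitive protocols differed in this gene, and its call was kept under every alternative tried other than a limit on fold.

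SLC27A1 (FATP1), a fatty acid transport protein of muscle and fat, was 8.08, 8.37, 8.06, 8.23 and 8.34 in control and 7.69, 7.55, 7.29, 7.64 and 7.89 in RCS, with no overlap. It was 1.52-fold lower in RCS (difference −0.60 ± 0.15, adjusted p = 0.00274) and at −0.18 ± 0.15 in RCO (adjusted p = 0.459), where replicate 2 was the lowest and replicates 4 and 5 lay above every control. SLC27A6 (FATP6), the heart form of the family, fell by a similar small amount in all 3 protocols, at −0.33 ± 0.09, −0.29 ± 0.09 and −0.28 ± 0.09 (adjusted p = 0.0355, 0.0456 and 0.0155). Its probe sets disagreed in RCS, 1 of the other sets being lower (−0.23, adjusted p = 0.015) and 1 higher (0.28, adjusted p = 0.025), and with the mean of all its probe sets the RCS call was lost (−0.08, adjusted p = 0.34). Without control replicate 4, its highest control, the values were −0.28, −0.24 and −0.23 (adjusted p = 0.10, 0.12 and 0.051), and the SWOP and RCO calls were each lost without any 1 of 6 arrays.

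The other genes of fatty acid and carnitine handling moved the same way more often than not, 7 of 12 falling and 3 rising in RCS, 3 falling in RCO and none passing in SWOP. Of all genes 25.7% fell and 28.8% rose in RCS. CPT1B, the muscle enzyme that makes acylcarnitine for SLC25A20, differed by −1.12 ± 0.18 in RCO and −1.70 ± 0.18 in RCS (adjusted p = 0.00124 and 1.52e-06). LPL, which frees fatty acids from lipoproteins, and ACSL1, which activates them, fell in both as well (−1.10 ± 0.18 and −0.97 ± 0.19 in RCS). FABP3, CPT2, CRAT and GPIHBP1 fell in RCS, whereas ACSL4, ACSL3 and FABP5 rose (1.13 ± 0.17, 0.61 ± 0.14 and 0.44 ± 0.07).

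Of 13 metal carriers 6 rose and 2 fell in RCS (46.2% and 15.4%, beside 28.8% and 25.7% of all genes), 4 rose and 1 fell in RCO, and none passed in SWOP. SLC11A1 (NRAMP1) had a log2 signal of 5.34, 5.32, 5.23, 5.77 and 5.61 on the control arrays, 5.52, 5.44, 5.41, 5.59 and 5.50 after SWOP, 5.72, 9.39, 8.19, 6.43 and 6.46 after RCO and 8.64, 8.48, 9.42, 9.27 and 7.66 after RCS. RCO replicate 2 was nearly as high as the highest RCS array, RCO replicate 1 lay inside the control range, and every RCS array was far above every control. The control mean of 5.45 lay just below the 30th percentile of signal, as did that of SLC2A5 (5.36), so the folds of both genes rest on dim controls. The gene was 9.45-fold higher in RCS (difference 3.24 ± 0.48, adjusted p = 3.5e-05) and 3.44-fold higher in RCO (difference 1.78 ± 0.48, adjusted p = 0.0219). The RCO difference was 0.75 ± 0.28 without replicates 2 and 3 (adjusted p = 0.131), 1.55 without replicate 3 alone (adjusted p = 0.072) and 1.75 without control replicate 2 (adjusted p = 0.050).

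Macrophage markers moved beside SLC11A1 and SLC2A5, both known from phagocytes. SLC7A7, also known from them, was at 0.24 ± 0.14 in RCO (adjusted p = 0.286), and its probe sets went opposite ways in RCS. Of 14 markers 9 were measured, and 4 rose in RCS (AIF1 2.12 ± 0.23, FCER1G 2.21 ± 0.27, TYROBP 2.01 ± 0.31 and CD163 0.97 ± 0.38) while CD14, C1QA, C1QC, MRC1 and ITGAM did not pass (0.16, 0.03, 0.21, −0.05 and −0.26). In RCO 3 rose, namely AIF1, FCER1G and TYROBP. Over all genes 28.8% rose in RCS and 11.3% in RCO. The mean log2 signal of the 9 markers ran from 7.62 to 8.33 on control arrays, from 7.63 to 8.39 after SWOP and from 8.61 to 8.90 after RCS, and after RCO it was 8.33, 9.63, 8.95, 8.33 and 8.20. The highest marker means were those of RCO replicates 2 and 3. SLC11A1 and SLC2A5 were high on these arrays and on all RCS arrays, whose marker means were lower. SLC2A5 lay inside the range of RCS on RCO replicate 2 and below that range on RCO replicate 3. The summed signal of the list was 2439 to 4712 for control arrays, 2662 to 4621 for SWOP, 3907 to 11962 for RCO and 5420 to 6889 for RCS, on the linear scale. The 3 measured neutrophil markers (S100A8, S100A9 and S100A12) had group means below that percentile, and none passed against control. Their mean on RCO replicate 2, the RCO array highest in SLC11A1 and SLC2A5, was 6.01, against 4.59 to 4.82 on the other RCO arrays and 4.47 to 4.85 in the other groups. Their summed signal reached 295 in RCO and at most 87.9 in the other groups. The part of these cells in the rise of SLC11A1 and SLC2A5 was not tested.

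**Figure D5:**
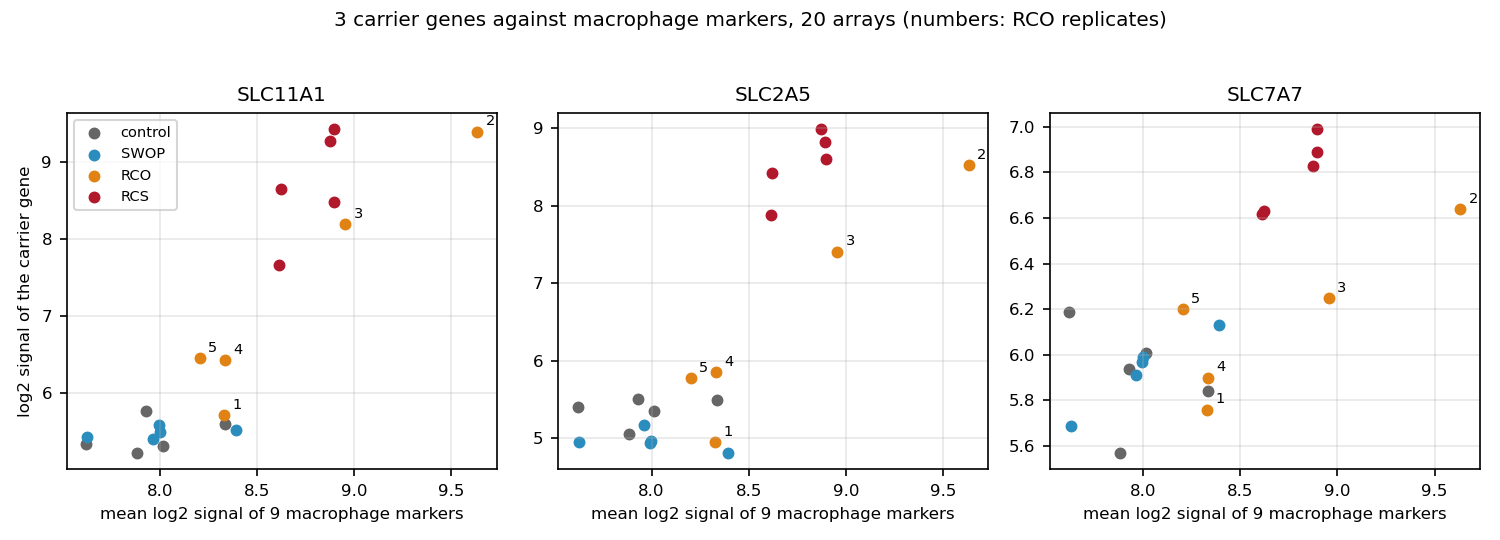
Each point is 1 of 20 arrays, with the mean log2 signal of 9 macrophage markers on the horizontal axis and the log2 signal of SLC11A1, SLC2A5 or SLC7A7 (its brighter probe set) on the vertical axis; numbers mark RCO replicates. RCO replicates 2 and 3 had marker means of 9.63 and 8.95, and the RCS arrays lay between 8.61 and 8.90 with SLC11A1 between 7.66 and 9.42.

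Of 8 zinc carriers (the SLC30 and SLC39 families) 3 rose, 1 fell and 4 did not pass in RCS, and both copper carriers rose. Over all genes 28.8% rose and 25.7% fell in RCS. SLC39A7, which releases zinc from the endoplasmic reticulum, was 7.78, 8.24, 7.85, 7.99 and 7.95 on the control arrays, 8.24, 9.21, 9.04, 8.44 and 7.95 after RCO and 8.87, 9.09, 9.56, 9.04 and 8.77 after RCS. RCS lay wholly above control, and RCO replicates 2 and 3 lay among the RCS arrays while replicate 5 lay among the controls. The difference was 1.10 ± 0.19 in RCS (adjusted p = 0.000159) and 0.61 ± 0.19 in RCO (adjusted p = 0.0448), the latter 0.25 ± 0.15 without RCO replicates 2 and 3 and lost without any 1 of 7 arrays (adjusted p from 0.053 to 0.13). SLC30A5, which loads zinc into the secretory pathway, was 2.03-fold higher in RCS (difference 1.02 ± 0.17, adjusted p = 0.000113) and passed in RCO (0.55 ± 0.17, adjusted p = 0.0434), a call lost without any 1 of 9 arrays (adjusted p from 0.051 to 0.12). In SWOP all 5 arrays of SLC30A5 exceeded every control without passing (0.53 ± 0.17, adjusted p = 0.0607). Its second probe set, of dim signal, passed higher in SWOP (0.61, adjusted p = 0.011), RCO (0.60, adjusted p = 0.0044) and RCS (0.85, adjusted p = 2.57e-05). Its dimmest probe set did not pass in these comparisons (−0.09, 0.04 and −0.05). SLC39A1, a zinc importer of the plasma membrane, rose in RCS (0.71 ± 0.14, adjusted p = 0.000402). SLC39A2, another zinc importer, fell in RCS (−0.35 ± 0.11, adjusted p = 0.0131), with 4 of 5 arrays below every control. SLC30A3, SLC39A4, SLC39A5 and SLC39A14 were at −0.08, −0.07, −0.10 and 0.06 in RCS. The other probe sets of SLC30A3 and SLC39A5 were lower in RCS (−0.29, adjusted p = 0.011, and −0.47, adjusted p = 0.0026). That of SLC39A14 did not pass (0.12, adjusted p = 0.33).

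SLC31A1 (CTR1), the high-affinity copper importer, had a log2 signal of 7.83, 7.38, 7.57, 7.70 and 7.69 on the control arrays, 7.97, 7.67, 7.76, 7.67 and 7.70 after SWOP, 8.23, 8.20, 8.27, 8.06 and 7.78 after RCO and 8.28, 8.14, 8.40, 8.11 and 8.06 after RCS. All RCS arrays and 4 of 5 RCO arrays lay above the highest control. The difference was 0.47 ± 0.10 in RCO (adjusted p = 0.00678) and 0.56 ± 0.10 in RCS (adjusted p = 0.000248), and without RCO replicates 2 and 3 the RCO value was 0.39 ± 0.12 (adjusted p = 0.0615). Its second probe set, of dim signal, was lower in RCS (−0.25, adjusted p = 0.029). The related gene SLC31A2 rose in RCS (0.49 ± 0.12, adjusted p = 0.00272) and was at 0.09 ± 0.12 in RCO (adjusted p = 0.66).

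SLC41A1, a magnesium carrier of the plasma membrane, was the metal carrier that fell in both repetitive protocols. Its log2 signal was 10.12, 10.65, 10.52, 10.74 and 10.63 on the control arrays, 10.51, 10.95, 10.77, 10.52 and 10.70 after SWOP, 9.44, 8.81, 9.0, 10.23 and 10.28 after RCO and 9.92, 9.55, 9.37, 9.55 and 9.82 after RCS. All 5 RCS arrays lay below every control, and RCO replicates 1, 2 and 3 did, with replicates 2 and 3 the lowest of all 20. It was 1.97-fold lower in RCO (difference −0.98 ± 0.23, adjusted p = 0.01), 1.85-fold lower in RCS (difference −0.89 ± 0.23, adjusted p = 0.00344) and 2.2-fold lower in RCO than in SWOP (adjusted p = 0.00594). Its other 3 probe sets were also lower and passed in RCO (−0.95, −1.10 and −0.54) and in RCS (−1.34, −0.88 and −0.93). Without RCO replicates 2 and 3 the difference from SWOP still passed (−0.71 ± 0.18, adjusted p = 0.028), and that from control did not (−0.55 ± 0.18, adjusted p = 0.0875).

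Iron import through SLC11A2 (DMT1) did not pass against control, at 0.34 ± 0.13 in SWOP, 0.00 ± 0.13 in RCO and −0.01 ± 0.13 in RCS. Of 10 iron and metal partner genes 3 rose and 1 fell in RCS, none passed in RCO and 1 rose in SWOP. Over all genes 28.8% rose and 25.7% fell in RCS. The ferritin chains FTL and FTH1, which store iron, and HMOX1, which frees it from heme, rose in RCS (1.30 ± 0.18, 0.25 ± 0.07 and 1.79 ± 0.38), and the metallothionein MT3 fell (−1.90 ± 0.37, adjusted p = 0.000482). TFRC, the transferrin receptor, rose in SWOP (0.95 ± 0.29, adjusted p = 0.048).

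Amino acid carriers fell more often than they rose in RCS, 8 against 4 of 19 (42.1% and 21.1%, beside 25.7% and 28.8% of all genes). In SWOP and in RCO 2 fell and none rose (10.5%, beside 8.16% and 15.6% of all genes in either direction). The 2 were SLC1A1 and the serotonin transporter SLC6A4, which is also among the 8 that fell in RCS. Of the 8 that fell in RCS, SLC1A3, SLC1A6, SLC6A14 and SLC7A9 were dim on these arrays, with means below the 30th percentile. Over the whole array, of the 2255 genes with the lowest mean signal 838 passed lower and 362 higher in RCS, and of the 2255 with the highest 454 passed lower and 850 higher.

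SLC6A4, the serotonin transporter, fell in all 3 protocols. Its log2 signal was 6.68, 7.28, 6.81, 7.45 and 6.87 on the control arrays, 6.96, 6.08, 6.42, 6.37 and 6.4 after SWOP, 6.53, 6.12, 6.18, 6.49 and 6.87 after RCO and 5.95, 6.09, 5.82, 5.83 and 6.07 after RCS. All RCS arrays lay below every control, and SWOP replicate 1 and RCO replicate 5 were the arrays of those groups that did not. The differences were −0.57 ± 0.17 in SWOP (adjusted p = 0.0429), −0.58 ± 0.17 in RCO (adjusted p = 0.0309) and −1.07 ± 0.17 in RCS (2.09-fold lower, adjusted p = 5.99e-05). RCS was also lower than SWOP (−0.49 ± 0.17, adjusted p = 0.0304) and than RCO (−0.49 ± 0.17, adjusted p = 0.0464). The SWOP call was lost without control replicate 2, 4 or 5 or SWOP replicates 2 to 5 in turn (adjusted p from 0.061 to 0.12), and the RCO call without control replicate 2 or 4 or RCO replicate 2 or 3 (adjusted p from 0.078 to 0.092). The call between RCS and RCO was lost without any 1 of 7 arrays (adjusted p from 0.058 to 0.14), and that between RCS and SWOP in 4 alternatives (adjusted p from 0.067 to 0.096). SLC1A1 (EAAT3), a glutamate and cysteine carrier, was lower by nearly the same amount in all 3 (−0.42 ± 0.12, −0.43 ± 0.12 and −0.45 ± 0.12, adjusted p = 0.0438, 0.0316 and 0.00589). The SWOP call was lost without any 1 of 9 arrays and the RCO call without any 1 of 7. It had 5 probe sets, one of which was higher in RCS (0.39, adjusted p = 0.016), and the mean of all 5 did not pass in any protocol (−0.10, −0.11 and 0.00).

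The 4 amino acid carriers counted as higher in RCS were SLC7A1, SLC38A9, SLC38A10 and, by its brighter probe set alone, SLC7A7. SLC38A9, which senses arginine at the lysosome, had a log2 signal of 7.86, 7.55, 7.48, 7.49 and 7.07 on the control arrays, 7.85, 8.35, 7.91, 7.71 and 7.27 after RCO and 8.30, 8.59, 9.13, 8.84 and 8.31 after RCS. Every RCS array lay above every control, and RCO lay inside the control range apart from replicates 2 and 3, which were above it. It was 2.21-fold higher in RCS (difference 1.14 ± 0.18, adjusted p = 6.41e-05), and RCS exceeded RCO by 0.82 ± 0.18 (adjusted p = 0.00635). Its second probe set was higher too (0.54, adjusted p = 0.0041).

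SLC7A1 (CAT1), the main arginine importer, rose in RCS (0.68 ± 0.24, adjusted p = 0.0267), where its 5 arrays were 8.77, 8.68, 8.92, 8.59 and 8.60 against 7.78, 8.04, 7.89, 8.31 and 8.14 in control. The groups did not overlap, but the call was lost without control replicate 1 (0.62, adjusted p = 0.061), control replicate 3 (0.64, adjusted p = 0.052) or RCS replicate 3 (0.63, adjusted p = 0.063), and RCO replicate 1 stood at 6.77 against 8.17 to 8.72 for the other 4. SLC7A7, which exports cationic amino acids, rose by its brighter probe set (0.88 ± 0.14, adjusted p = 7.64e-05) and fell by its other (−0.56, adjusted p = 0.00027), which was lower in SWOP and RCO too (−0.39 and −0.35), so the probe annotation gives no single direction for it. The mean of both did not pass (0.16, adjusted p = 0.118). SLC3A2 (the shared heavy chain of several amino acid exchangers), SLC1A5 (a glutamine carrier) and SLC38A1 (a carrier of small neutral amino acids) did not pass in any of the 6 comparisons. Their RCS differences were −0.04 ± 0.10, 0.21 ± 0.12 and −0.42 ± 0.20. The next brightest probe set of SLC38A1 was lower in RCS than in control (−0.56, adjusted p = 0.027) and than in SWOP (−0.58, adjusted p = 0.034). Its dimmest did not pass in RCS against control (−0.32, adjusted p = 0.13). Of 8 partner genes of amino acid supply 3 rose and none fell in RCS, where 28.8% of all genes rose and 25.7% fell. Among the 3 were GCLC and GCLM, which make glutathione (1.04 ± 0.12 and 0.61 ± 0.19). In RCO DDIT3 rose (1.07 ± 0.32, adjusted p = 0.0373).

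SLC6A8, which takes up creatine, had a mean of 9.13 ± 0.14 in control, against 9.27 ± 0.13 after SWOP, 8.88 ± 0.26 after RCO and 9.11 ± 0.17 after RCS (SD, n = 5 each). It did not pass against control in any protocol and was lower in RCO than in SWOP (−0.39 ± 0.11, adjusted p = 0.0357), a call lost without any of 6 arrays (adjusted p from 0.056 to 0.089). The creatine kinases moved apart in RCS, the brain type CKB higher (1.69 ± 0.22) and the muscle and mitochondrial types CKM and CKMT2 lower (−0.91 ± 0.16 and −0.70 ± 0.19). CKB rose in RCO too (0.76 ± 0.22, adjusted p = 0.0323).

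SLC5A6 and SLC44A2 were the carrier genes that rose in all 3 protocols. SLC5A6, which carries biotin, pantothenate and lipoate with sodium, had a log2 signal of 6.70, 7.62, 6.90, 7.13 and 7.18 on the control arrays, 8.04, 7.67, 7.88, 7.89 and 7.69 after SWOP, 7.78, 7.34, 7.80, 7.65 and 8.17 after RCO and 8.06, 8.05, 8.35, 8.30 and 8.19 after RCS. All SWOP and RCS arrays and 4 of 5 RCO arrays lay above the highest control, which was control replicate 2. The differences were 0.73 ± 0.15 in SWOP (1.66-fold, adjusted p = 0.0122), 0.64 ± 0.15 in RCO (1.56-fold, adjusted p = 0.0106) and 1.08 ± 0.15 in RCS (2.12-fold, adjusted p = 1.86e-05). The RCO value was 0.76 ± 0.16 without replicates 2 and 3 (adjusted p = 0.0141). It was the gene of the set that passed in SWOP with a change of more than 1.5-fold.

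SLC44A2, a choline transporter-like protein, was 8.33, 8.57, 8.71, 8.40 and 8.61 on the control arrays, 8.83, 9.14, 9.02, 8.99 and 9.01 after SWOP, 8.85, 8.77, 9.06, 9.11 and 8.75 after RCO and 8.97, 9.08, 9.09, 9.14 and 9.39 after RCS. No array of any protocol fell within the control range. The differences were 0.47 ± 0.10, 0.38 ± 0.10 and 0.61 ± 0.10 (adjusted p = 0.0121, 0.0157 and 6.87e-05). Its next brightest probe set did not pass in any protocol (0.20, −0.09 and 0.11). The dimmest probe set of SLC44A2 was higher in RCS (0.64, adjusted p = 0.00025) and did not pass in SWOP or RCO (0.32, adjusted p = 0.087, and 0.09, adjusted p = 0.67). The RCO call was lost without RCO replicate 3 (0.35, adjusted p = 0.052) and with the mean of its 3 probe sets (0.13, adjusted p = 0.25).

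Of 19 carriers of nucleosides, nucleotide sugars, vitamins and other solutes, SLC5A6 and SLC44A2 among them, 6 rose and 6 fell in RCS (31.6% each, near the shares over all genes), 3 rose and 1 fell in RCO, and 3 rose in SWOP. SLC29A1 (ENT1), which clears adenosine from the extracellular space, had a log2 signal of 8.28, 8.12, 8.09, 8.26 and 8.46 on the control arrays, 8.12, 7.98, 8.11, 8.09 and 8.26 after SWOP, 7.89, 8.03, 8.07, 7.96 and 8.07 after RCO and 7.82, 7.71, 7.91, 7.90 and 7.86 after RCS. All RCO and RCS arrays lay below every control, and SWOP overlapped control. The differences were −0.13 ± 0.08 (adjusted p = 0.281), −0.24 ± 0.08 (adjusted p = 0.0492) and −0.40 ± 0.08 (adjusted p = 0.000347) in SWOP, RCO and RCS, and the RCO call was lost without any one of 8 arrays (adjusted p from 0.051 to 0.13). Of 4 partner genes of adenosine handling 3 rose in RCO and in RCS, namely ADK, which phosphorylates adenosine (0.64 ± 0.13 in RCS), ENTPD1, which degrades extracellular ATP (0.76 ± 0.14), and PNP, which cleaves inosine (0.57 ± 0.15). The adenosine receptor gene ADORA1 did not pass (−0.31 ± 0.15). Over all genes 11.3% rose in RCO and 28.8% in RCS.

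SLC35A3, which brings UDP-N-acetylglucosamine into the Golgi, was 5.40, 4.81, 5.31, 5.01 and 5.09 on the control arrays, 5.49, 5.56, 5.59, 5.55 and 5.76 after SWOP, 6.17, 5.94, 6.16, 5.36 and 5.22 after RCO and 6.12, 6.24, 6.66, 6.34 and 6.11 after RCS. SWOP and RCS lay wholly above control, and RCO replicates 4 and 5 lay inside the control range. It rose in RCS (1.17 ± 0.17, 2.25-fold, adjusted p = 2.55e-05) and in RCO (0.65 ± 0.17, adjusted p = 0.018), and was at 0.47 ± 0.17 in SWOP (adjusted p = 0.0864). Every control array of SLC35A3 lay below 5.48, the percentile of signal given above, so its fold rests on dim controls. Without RCO replicate 3 the RCO value was 0.55 (adjusted p = 0.063), and without control replicate 2 it was 0.57 (adjusted p = 0.057). SLC33A1, which brings acetyl-CoA into the endoplasmic reticulum, rose in SWOP (0.35 ± 0.11, adjusted p = 0.0482) and RCS (0.63 ± 0.11, adjusted p = 0.000124). Of its 4 probe sets 3 were higher in RCS and the dimmest was lower (−0.39, adjusted p = 0.0062), and the SWOP call was lost without any one of 8 arrays (adjusted p from 0.055 to 0.13). SLC35A4, of the same family as SLC35A3, and SLC37A4, which carries glucose 6-phosphate into the endoplasmic reticulum, passed in no comparison (0.12 and 0.15 in RCS). SLC46A2 was dim in control and rose in RCS, with 5.64, 6.18, 5.50, 5.54 and 5.53 against 5.08, 4.96, 4.77, 5.09 and 4.89 in control and 4.80, 5.07, 4.92, 4.84 and 5.02 in RCO. No RCS array overlapped another group, and RCS minus RCO was 0.75 ± 0.11 (1.68-fold, adjusted p = 0.000784).

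Of 11 ion and proton exchanger genes none passed in SWOP or RCO, where 8.16% and 15.6% of all genes did. In RCS 2 rose and 2 fell (36.4%, beside 54.5% of all genes), by the probe set used for each gene. The other probe sets of SLC9A3 and SLC9A5, genes not counted as passed, were lower in RCS (−0.39, adjusted p = 0.0080, and −0.29, adjusted p = 0.045). Those of SLC4A4 and SLC26A11 did not pass in RCS (−0.19 and 0.01). The share of this class therefore depended on the choice of probe set. The potassium-chloride cotransporter SLC12A4 and the anion exchanger SLC26A6 rose (0.57 ± 0.18 and 0.48 ± 0.11, adjusted p = 0.0143 and 0.00199), and the sodium-proton exchanger SLC9A4 and the phosphate carrier SLC34A2 fell (−0.41 ± 0.12 and −0.44 ± 0.13, adjusted p = 0.00925 and 0.0109). Of 6 partner genes of ion transport, ATP1B3, a sodium pump subunit, rose in SWOP (0.62 ± 0.17), RCO (0.84 ± 0.17) and RCS (1.36 ± 0.17). In RCS the kinase SGK1, which regulates ion carriers, rose (1.08 ± 0.28), and OXSR1, a kinase of the chloride cotransporters, fell (−0.27 ± 0.07).

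Markers of other cells also moved in RCS, where the carriers changed most. Of 5 smooth muscle and pericyte markers measured 3 rose (ACTA2, TAGLN and CNN1). Of 5 fibroblast markers 3 rose (COL1A2, LUM and POSTN), and of 4 adipocyte markers 2 fell (LEP and CFD). In the same comparison 4 of 5 skeletal muscle markers and 1 of 3 erythroid markers fell. None of 7 endothelial and 4 lymphocyte markers passed. The shares over all genes in RCS were 28.8% higher and 25.7% lower. The skeletal muscle markers MYH2 and MYLPF had RCS means below the percentile of signal given above, MYH2 in control too. Whether the fall of this list reflects a change in skeletal muscle cells was not tested. In SWOP CNN1 rose and LEP fell, and in RCO LUM, POSTN and CNN1 rose and CFD, VWF and ACTC1 fell. The mean log2 signal of the fibroblast list was 9.27 to 10.47 in control, 9.87 to 11.34 in RCO (highest in replicates 2 and 3) and 10.88 to 11.60 in RCS. The part of these cells in the values of the carrier genes was not tested.

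Compared directly, RCO and SWOP differed in 14 carrier genes, 6 higher and 8 lower in RCO, where 11.9% of all genes passed (5.54% higher and 6.4% lower). The higher ones were SLC11A1, SLC2A5, SLC25A5, SLC23A2 (a vitamin C carrier), SLC31A1 and SLC1A4 (a carrier of small neutral amino acids), at 1.75, 1.54, 0.45, 0.41, 0.35 and 0.33. SLC41A1, SLC25A30, SLC2A4, SLC2A12 and SLC25A11 had the largest of the lower ones (−1.14, −0.97, −0.63, −0.53 and −0.42). Only SLC41A1 kept its call under every alternative tried other than a limit on fold. Leaving out RCO replicate 2 gave a count of 7, and leaving out RCO replicate 3 gave 1. Leaving out SWOP replicate 2, 3, 4 or 5 gave 3, 5, 6 or 1, and leaving out RCO replicates 2 and 3 together gave 3.

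RCS and SWOP differed in 45 carrier genes, 26 higher and 19 lower in RCS, where 38% of all genes passed (20.3% higher and 17.7% lower), and 34 of the 45 calls were kept under every alternative other than the limit on fold. SLC2A5 was 11.9-fold and SLC11A1 9.2-fold higher in RCS, followed by SLC25A5, SLC16A3 and SLC38A9 (1.17, 1.12 and 1.04). SLC25A30, SLC41A1, SLC25A12, SLC2A12 and SLC2A4 had the largest of the lower values (−1.27, −1.05, −0.98, −0.88 and −0.88). The genes that rose in SWOP did not pass between these 2 protocols, with RCS minus SWOP at 0.36 ± 0.15 for SLC5A6, 0.14 ± 0.10 for SLC44A2, 0.08 ± 0.10 for SLC25A39, 0.28 ± 0.11 for SLC33A1 and −0.09 ± 0.10 for SLC25A1. These intervals do not show that the protocols acted alike.

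RCS and RCO differed in 23 carrier genes, 13 higher and 10 lower in RCS, where 21.6% of all genes passed (11.7% higher and 9.9% lower). SLC2A5, SLC11A1, SLC25A24, SLC38A9 and SLC46A2 were the highest (2.04, 1.46, 0.85, 0.82 and 0.75), and SLC22A5, SLC25A12, SLC5A10, SLC2A4RG and SLC25A20 the lowest (−0.82, −0.59, −0.53, −0.52 and −0.50). The SLC11A1 call was lost without RCO replicate 1, 4 or 5 or RCS replicate 1, 2, 3 or 4 (adjusted p from 0.056 to 0.11), while without RCO replicates 2 and 3 the difference was 2.49 ± 0.28 (adjusted p = 9.45e-06). SLC41A1 did not pass between them (0.09 ± 0.23), nor did SLC2A4 (−0.25 ± 0.19). The count rose to 38 without RCO replicate 2 and to 49 without RCO replicates 2 and 3, and fell to 14 without RCO replicate 4 or 5 and to 13 without RCS replicate 3. The median over the 110 genes was 0.03, 0.01 and −0.02 in the 3 comparisons between protocols, beside 0.02, −0.02 and −0.01 over all genes.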

How the data were processed

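Levels are the series' deposited table of processed array values, 1 column per animal. Per the submitters' processing notes the tools used were RMA and MAS5, and which gave this table, its log base and its centring are not stated; the deposited values were taken as log2 from their range, and their direction is higher signal for more RNA. Per the labels' protocols, Trizol total RNA was primed with oligo(dT) and labelled with biotin, so probe sets far from the 3′ end can read low. From 24123 probe sets, 124 control spots were left out and 23999 were fitted with limma 3.58.1 (R 4.3.3; lmFit and eBayes, 4 group means, 16 residual degrees of freedom), with Benjamini-Hochberg adjustment over all of them, and the fit was tested on simulated data. Figures and summaries used Python 3.11.15. Probe sets were named by the platform annotation, and of the 110 gene IDs 109 matched the RefSeq table, all with the same symbol. Genes described singly were those of a fixed list of well-known carriers and those with the largest differences among genes that passed, 45 in all; other carriers named (such as SLC50A1, SLC39A1, SLC31A2, SLC7A7, SLC39A2, SLC22A6, SLC12A4 and SLC23A2), and partner genes beyond the 2 of smallest p in each list, were chosen after their values were seen. The members and lists were chosen with earlier results of these data known. Replicate numbers are those of the labels.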

Additional observations from a re-analysis of the deposited data

Results flagged for a closer look

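Among the 180 gene and group combinations of the 45 genes described, 13 had 1 array apart from the other 4 by Dixon's test, where chance gives about 1 in 20. In RCS, replicate 5 was apart for SLC25A1 (8.31, others 8.54 to 8.56), SLC25A12 (10.95, others 10.12 to 10.34) and SLC25A17 (7.46, others 8.29 to 8.60). RCS replicate 2 was apart for SLC27A6 (6.03, others 5.88 to 5.92) and SLC46A2 (6.18, others 5.50 to 5.64). RCS replicate 3 was high for SLC30A5 (7.17, others 6.36 to 6.50), and RCS replicate 1 for SLC3A2 (8.18, others 7.82 to 7.89).

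SWOP replicate 1, 1 of the 2 arrays with the highest spike-in signal, was high for SLC25A6 (12.98, others 12.48 to 12.59) and low for SLC2A1 (8.31, others 9.01 to 9.14). SWOP replicate 4 was high for SLC22A5 (7.89, others 7.69 to 7.74). RCO replicate 1, the other array of high spike-in signal, was low for SLC7A1 (6.77, others 8.17 to 8.72). In control, replicate 1 was high for SLC2A12 (6.72, others 6.25 to 6.38) and replicate 2 for SLC3A2 (8.19, others 7.89 to 7.92).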

How the results depend on the processing

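Of 2657 values of single genes under the alternatives, 2268 kept their side of the threshold (43 of them, of genes that did not pass either way, turned sign), 379 kept the direction but no longer passed, 10 came to pass and none of the called values changed sign. The counts of carrier genes that passed were 9 in SWOP, 21 in RCO and 65 in RCS against control. They were 14 in RCO and 45 in RCS against SWOP, and 23 in RCS against RCO. Each count moved by more than 1.5 times in some of the settings below. Those of RCS against control and RCS against SWOP did so only under the limit on fold. No count moved that far under the replicate block. Quantile normalization gave 4 and median centring 5 in SWOP. Fitting only the 2 groups compared gave 22, 0, 1 and 6 in SWOP, RCO, RCO against SWOP and RCS against RCO. A limit of 1.5-fold, which removes smaller changes by construction, gave 1, 9, 30, 5, 25 and 9. Leaving out both RCO replicates 2 and 3, added after seeing the data, gave 2, 3 and 49 in RCO, RCO against SWOP and RCS against RCO. Without each array in turn the counts were 3 to 12, 3 to 27, 57 to 66, 1 to 16, 37 to 47 and 13 to 38, in the same order. The replicate number as a block gave 12, 22, 65, 15, 47 and 24; it ended the calls of SLC25A20 in RCO (adjusted p = 0.059), SLC25A51 in RCS (just over 0.05), SLC25A5 and SLC9A3R2 in RCO against SWOP (0.055 in both) and SLC6A4 and SLC5A6 in RCS against RCO (0.053 and 0.059). The numbers share no stated source. Over 30 pairs of the same number the correlation of deviations from the group means was −0.18 to 0.44 (median 0.07), with 10 over 0.1, against 19 of 120 pairs of different numbers. Between RCO and RCS replicates 1 to 5 it was 0.37, 0.20, 0.44, 0.08 and 0.43, not all over 0.1, and RCO replicate 2 correlated better with RCS replicate 3 (0.46), so the numbers were not taken to pair animals. The cause of these changes was not tested. Signal limits the dim genes, 21 of the 110 lying below the 30th percentile of signal.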
